A study of Rattus norvegicus with 63 samples.

Results

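The 10 genes described here are p53 target and DNA repair genes measured in rat liver: Cdkn1a, Ccng1, Mdm2, Phlda3, Perp, Zmat3, Sesn1, Mgmt, Ddb2 and Xpc. They were chosen by name, through an annotation symbol equal to the gene's own, from the 10411 genes with a symbol of their own on the array. They were read by 14 of its 15866 probe sets, and each gene is represented by its brightest probe set on average across the 63 arrays. All 10 genes were measured. Liver RNA of male Wistar Hanover rats, 8 to 10 weeks old at assignment, was hybridized to Affymetrix RAE230A arrays, 1 array per animal, after oral dosing with 1 of 15 compounds or with vehicle alone. Each group holds 3 arrays, and per the series description the 3 animals were picked from 5 after histopathology, so each array is a different animal, chosen after its liver had been examined. No genetic modification is named for any group.

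The study calls C.I. Direct Black (CIDB, an azo dye, 146 mg/kg/d for 7 days) and dimethylnitrosamine (DMN, an alkylating nitrosamine, 4 mg/kg/d for 7 days) genotoxic carcinogens, which damage DNA directly. Both were compared with control set 3, which received corn oil for 7 days. Its 8 non-genotoxic carcinogens are acetamide (AA, 3000 mg/kg/d, 14 days), dehydroepiandrosterone (DHEA, 600 mg/kg/d, 14 days), methylcarbamate (Mcarb, 400 mg/kg/d, 14 days) and methapyrilene HCl (MPy, 60 mg/kg/d, 7 days), compared with control set 1, diethylstilbestrol (DES, 10 mg/kg/d, 3 days), ethionine (ETH, 200 mg/kg/d, 14 days) and piperonylbutoxide (PBO, 1200 mg/kg/d, 3 days), compared with control set 5, and phenobarbital sodium (PB, 14 days, dose not given in the labels), compared with control set 6. The non-carcinogens cefuroxime (CFX, 250 mg/kg/d) and nifedipine (Nif, 3 mg/kg/d) were given for 14 days and compared with control set 2. The class of cyproterone acetate (CPA, 100 mg/kg/d, 14 days, control set 4), thioacetamide (TAA, 19.2 mg/kg/d, 7 days, control set 1) and Wy-14643 (Wy, 60 mg/kg/d, 3 days, control set 1) was left undefined. Sets 1, 2, 5 and 6 received methylcellulose and set 4 corn oil, all for 14 days, so the animals given DES, PBO or Wy for 3 days and MPy or TAA for 7 days were set against controls dosed for longer, and dosing time and compound cannot be told apart there. For the compounds set against sets 1, 2, 5 and 6 the study's methods text names carboxymethyl cellulose as the vehicle, where the labels of these controls name methylcellulose. Compounds with the same control set share its arrays, and their differences are not independent.

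The transcription factor p53 is held low by Mdm2 and accumulates after DNA damage. It then switches on genes that halt the cell cycle, decide between survival and death, and repair DNA, among them Mdm2 itself, which closes a feedback loop. In the liver, alkylating agents and metabolically activated carcinogens are classic triggers of this response.

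The region just before the start of transcription was read for 8 of the 10 genes in RefSeq sequence of the rat assembly GRCr8, and Zmat3 and Ddb2 were not looked at. The 10-base p53 half-site was searched on both strands in the 250 bases before and 50 after each start, and only exact matches were counted. A full p53 site is 2 such half-sites 0 to 13 bases apart. The half-site matched once in Cdkn1a, Ccng1 and Sesn1 and not in Mdm2, Phlda3, Perp, Mgmt or Xpc. It was held by 7.98% of the 33469 promoters searched. None of the 8 genes held such a pair of exact matches, which 0.0598% of the promoters did. In Cdkn1a the 10 bases directly after the match depart from the half-site only in their first base, a T where it has A or G. The search did not count them, so it does not show that Cdkn1a lacks a full site. The 3 matching stretches are shown because their genes behaved differently. Cdkn1a and Ccng1 were among the genes that rose most. Sesn1, also with an exact match, rose against its own control set with no compound. Each runs 5′ to 3′ from 250 to 151 bases before the start, and capitals mark the match, which begins 201 bases before the start of Cdkn1a, 232 before Ccng1 and 172 before Sesn1. The start is that of the transcript in the promoter table, and for Cdkn1a and Sesn1 it lies downstream of the gene's first annotated base, so for Sesn1 it is an internal start. They lie at chr20:7150682-7150781 on the plus strand, chr10:25685027-25685126 on the minus strand and chr20:46948469-46948568 on the plus strand.
Cdkn1a: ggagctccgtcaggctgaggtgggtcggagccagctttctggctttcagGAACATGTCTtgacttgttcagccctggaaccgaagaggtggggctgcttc
Ccng1: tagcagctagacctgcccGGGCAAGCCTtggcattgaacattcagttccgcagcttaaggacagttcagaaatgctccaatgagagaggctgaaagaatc
Sesn1: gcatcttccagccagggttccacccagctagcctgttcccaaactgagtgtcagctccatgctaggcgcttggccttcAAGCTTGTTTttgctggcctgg

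With CIDB 7 of the 10 genes rose against control set 3 and 2 fell, while 8.14% of all probe sets rose and 5.75% fell. With DMN 5 rose, against a background of 2.31%, and none fell. The genes that rose with both were Cdkn1a, Ccng1, Mdm2, Phlda3 and Mgmt. At the study's criterion of a 2.5-fold change, 5 genes rose with CIDB, 4 with DMN and 1 with TAA, where 0.41%, 0.214% and 0.0882% of all probe sets did. Throughout, levels are log2 values, differences are log2 fold changes given ± SE with 3 arrays a group, and a gene is said to rise or fall where limma's adjusted p was under 0.05 over all probe sets. Of the 150 pairs of gene and compound, 24 rose and 15 fell.

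**Figure D1:**
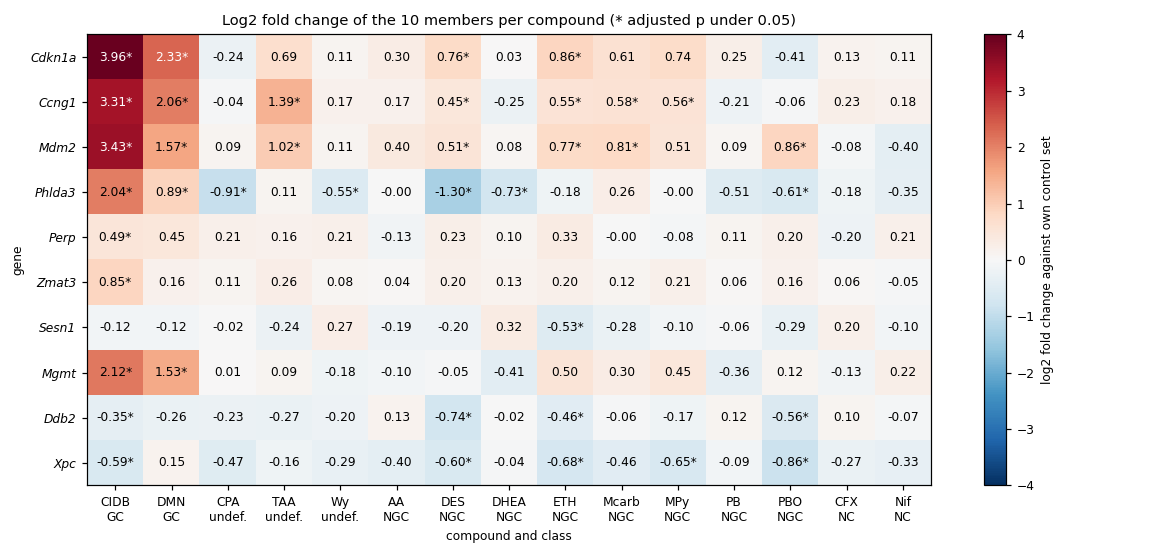
Log2 fold change of each of the 10 genes (rows) with each of the 15 compounds (columns) against the compound's own control set, with 3 arrays a group and a star where the adjusted p was under 0.05. The CIDB and DMN columns hold the highest values, up to 3.96 for Cdkn1a with CIDB, and the Phlda3 row falls to -1.30 with DES.

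Cdkn1a encodes p21, the inhibitor of cyclin-dependent kinases that halts the cell cycle of damaged cells. Its log2 level was 12.94, 12.53 and 13.07 in the CIDB arrays, 11.52, 11.59 and 10.55 in the DMN arrays and 8.48, 8.84 and 9.34 in control set 3. The CIDB arrays lay above the DMN arrays and both lay above all 18 control arrays, whose levels ran from 8.48 through a median of 9.05 to 9.65. The difference was 3.96 ± 0.26 with CIDB, 15.5-fold (adjusted p = 1.14e-16), and 2.33 ± 0.26 with DMN, 5.04-fold (adjusted p = 1.37e-08). One DMN array stood lower than the others, within the range of the 39 arrays of the other compounds, which reached 10.63 in a MPy array. A second Cdkn1a probe set gave 4.77 with CIDB and 2.27 with DMN.

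Ccng1, cyclin G1, is a p53 target that recruits a phosphatase to Mdm2. Its level was 11.34, 11.11 and 11.70 with CIDB, 10.21, 10.09 and 10.09 with DMN and 8.18, 7.98 and 8.05 in control set 3. None of the 6 arrays of the genotoxic compounds overlapped any other array of the series, the highest of which was a TAA array at 9.96. The differences were 3.31 ± 0.15 with CIDB and 2.06 ± 0.15 with DMN (adjusted p = 4.75e-23 and 2.61e-14).

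Mdm2, the ubiquitin ligase that removes p53, was at 10.52, 10.28 and 11.12 with CIDB, at 9.07, 8.58 and 8.69 with DMN and at 7.31, 7.23 and 7.09 in control set 3. The groups did not overlap, and the difference was 3.43 ± 0.17 with CIDB (10.8-fold, adjusted p = 1.5e-21) and 1.57 ± 0.17 with DMN (2.96-fold, adjusted p = 4.74e-09). A second Mdm2 probe set, at a lower level, rose by 2.43 with CIDB and by 0.60 with DMN.

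Of the genes for survival, death and RNA control, Phlda3 rose with both compounds. It encodes a small protein that competes with Akt for membrane lipids and so represses Akt. Its level was 10.82, 10.74 and 11.08 with CIDB, 9.88, 9.68 and 9.62 with DMN and 8.79, 9.08 and 8.64 in control set 3, which gave 2.04 ± 0.18 and 0.89 ± 0.18 (adjusted p = 3.64e-12 and 0.00176). The DMN arrays stood above those of control set 3, but only from 9.62 to 9.88, where the highest control array of the series was also at 9.62. Zmat3, a zinc finger protein that binds RNA, was at 8.81, 8.47 and 8.47 with CIDB against 7.66, 7.84 and 7.69 in the controls, a rise of 0.85 ± 0.09 (adjusted p = 1.08e-09). With DMN its arrays read 7.99, 7.97 and 7.72, and the difference was 0.16 (95% interval -0.03 to 0.35, adjusted p = 0.407). Perp, a membrane protein of desmosomes and of p53-dependent apoptosis, rose by 0.49 ± 0.14 with CIDB (adjusted p = 0.0106). It was at 10.29, 10.14 and 10.52 with CIDB and at 9.77, 9.86 and 9.85 in the controls, and without CIDB replicate 3 the difference was 0.39 (adjusted p = 0.101). With DMN the Perp difference was 0.45 (95% interval 0.17 to 0.73, adjusted p = 0.0605).

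The 2 probe sets of Perp disagreed across compounds. Against the compounds' own control sets the one used, with the higher mean level, rose with CIDB alone, and with controls pooled by vehicle it was called up with DMN (0.54, adjusted p = 0.00337), ETH (0.29, adjusted p = 0.0396) and Wy (0.30, adjusted p = 0.0442) as well. The other rose with AA by 0.46, CIDB by 0.80, DHEA by 0.72, DMN by 0.59, TAA by 0.64 and Wy by 0.62, and fell by 0.49 with Nif. AA, DHEA, TAA and Wy share control set 1, which had the lowest mean of the methylcellulose sets on this probe set. It was at 9.54, where sets 5, 6 and 2 were at 9.72, 9.83 and 9.90, and Nif was set against set 2. This probe set was not tested against pooled controls. Statements on Perp therefore hold for a probe set, not for the gene.

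Sesn1, sestrin 1, links p53 to nutrient sensing through mTORC1. It was at 8.10, 8.13 and 7.59 with CIDB and at 7.97, 7.75 and 8.10 with DMN, and control set 3 was at 8.39, 7.85 and 7.93. The groups overlapped. Both differences were -0.12, with 95% intervals of -0.44 to 0.21, so a rise of the size seen in Cdkn1a or Mdm2 lies outside them. With pooled methylcellulose controls Sesn1 was called up with DHEA (0.36, adjusted p = 0.0308).

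Mgmt, which takes alkyl groups off guanine in a suicide reaction, was the repair gene that rose. Its level was 11.52, 10.28 and 9.69 with CIDB, 10.22, 9.76 and 9.75 with DMN and 8.32, 8.39 and 8.43 in control set 3. The difference was 2.12 ± 0.30 with CIDB and 1.53 ± 0.30 with DMN (adjusted p = 5.49e-07 and 0.000839). The CIDB arrays were spread over a wider range than the DMN arrays, and all 6 stood above every other array, the highest of which was at 9.63 in a MPy animal.

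Xpc and Ddb2, both of nucleotide excision repair, fell with CIDB, and each of these calls ended when single arrays were left out. Xpc, the sensor that first binds distorted DNA, was at 9.09, 8.92 and 8.82 with CIDB and at 9.89, 9.39 and 9.33 in control set 3, a fall of 0.59 ± 0.18 on the log2 scale (-0.59, adjusted p = 0.0173). Without control 3 replicate 4 the difference was -0.42 (adjusted p = 0.145), and without CIDB replicate 3 it was -0.53 (adjusted p = 0.0849). Ddb2, which finds ultraviolet lesions in chromatin and hands them to Xpc, was at 7.27, 7.37 and 7.22 with CIDB and at 7.92, 7.48 and 7.50 in the controls, a difference of -0.35 ± 0.11 (adjusted p = 0.0196). Without control 3 replicate 4 it was -0.20 (adjusted p = 0.221), without CIDB replicate 1 -0.34 (adjusted p = 0.0591) and without CIDB replicate 3 -0.31 (adjusted p = 0.0898). The second Ddb2 probe set gave -0.11 with CIDB (adjusted p = 0.625). With DMN Xpc differed by 0.15 (95% interval -0.21 to 0.51) and Ddb2 by -0.26 (adjusted p = 0.195).

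**Figure D2:**
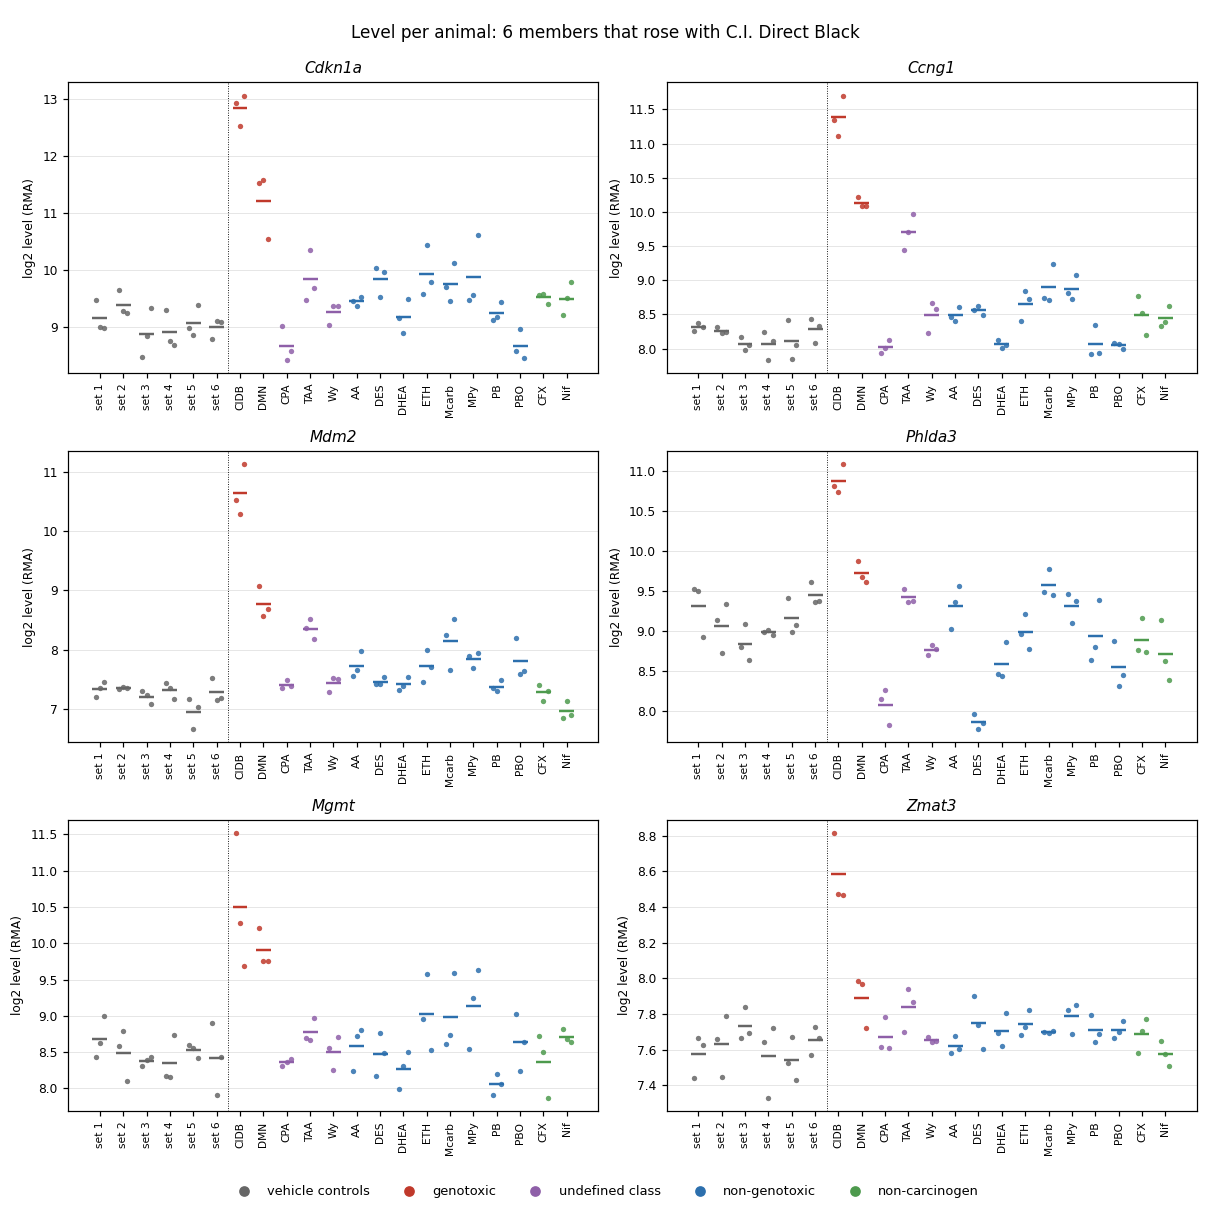
Log2 level on every array (points) and group mean (line) of 6 genes in the 6 vehicle control sets and with the 15 compounds, 3 arrays a group, coloured by the study's compound class. For Ccng1, Mdm2 and Mgmt all 6 arrays of CIDB and DMN lie above every other array, and TAA stands next for Ccng1 at 9.44 to 9.96.

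CIDB and DMN share the vehicle, the 7 days of dosing and the control set, and differ in compound and dose, 146 against 4 mg/kg/d. Set against each other directly, 5 genes were higher with CIDB and 1 was lower, where 6.35% of all probe sets were higher and 6.51% lower. Mdm2 differed by 1.87 ± 0.17 (adjusted p = 1.08e-11), Cdkn1a by 1.62 ± 0.26, Ccng1 by 1.25 ± 0.15, Phlda3 by 1.15 ± 0.18 and Zmat3 by 0.69 ± 0.09. Xpc was lower with CIDB by 0.75 (-0.75 ± 0.18, adjusted p = 0.00253), with the CIDB arrays between 8.82 and 9.09 and the DMN arrays between 9.59 and 9.87. For Mgmt, whose groups overlapped, the difference was 0.59 with a 95% interval of -0.01 to 1.19 (adjusted p = 0.221). The intervals for Perp (-0.24 to 0.32), Sesn1 (-0.33 to 0.33) and Ddb2 (-0.30 to 0.12) also included 0. The doses differ, so the differences are between 2 dosed groups and not between equal exposures.

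**Figure D3:**
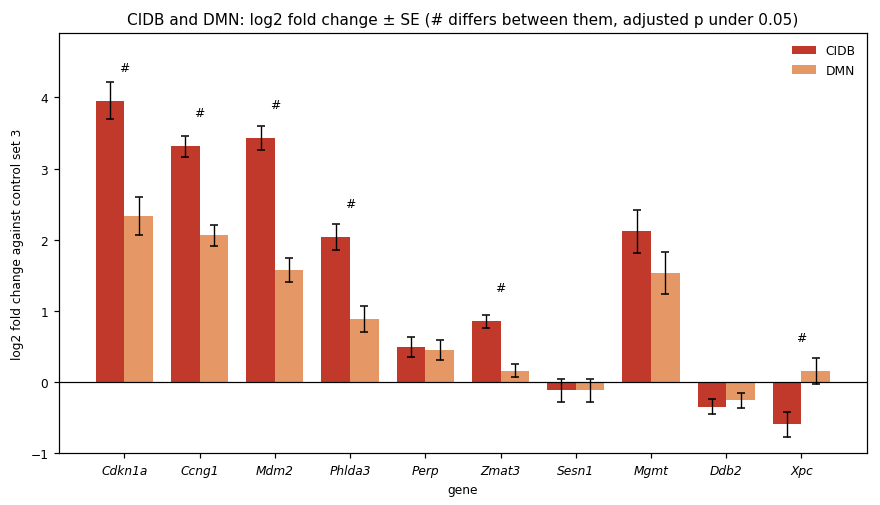
Log2 fold change ± SE of the 10 genes with CIDB and with DMN against the shared control set 3, 3 arrays a group, with a mark where the direct contrast of CIDB with DMN had an adjusted p under 0.05. Cdkn1a, Ccng1, Mdm2, Phlda3 and Zmat3 are higher with CIDB and Xpc is lower.

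Other cell markers moved in the same arrays. With CIDB 4 of the 5 erythroid markers fell, and their mean level ran from 7.86 to 8.03 against 9.90 to 10.31 in control set 3. Hbb, a haemoglobin chain, differed by -4.91. Of the 9 macrophage markers 4 rose with CIDB and 3 with DMN, among them Cd68 (0.93 and 0.97) and Gpnmb (0.97 and 1.78). Of the 19 markers of cycling cells 5 fell and 1 rose with CIDB, and none was called with DMN, where their median was 0.30. The 12 hepatocyte markers measured were above the median probe set on all arrays, from Alb, albumin, at 14.89 to 15.11 down to Hnf4a, a hepatocyte transcription factor, at 8.18 to 10.15. Of these 12, 2 rose with CIDB, and 1 rose and 1 fell with DMN. With DHEA 2 rose and 6 fell, with PBO 2 and 4, with DES 1 and 3, and with Wy 0 and 7. The part of these shifts in the results on the 10 genes was not tested, and in whole liver fewer cells of a type and less RNA per cell cannot be told apart.

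TAA, a liver toxin activated by oxidation, raised 2 genes, where 3.15% of all probe sets rose. Ccng1 was at 9.44, 9.71 and 9.96 against 8.26, 8.37 and 8.31 in control set 1 (1.39 ± 0.15, adjusted p = 8.94e-09). Mdm2 was at 8.37, 8.51 and 8.19 against 7.20, 7.35 and 7.45 (1.02 ± 0.17, adjusted p = 5.99e-05). The groups did not overlap for either gene. Cdkn1a differed by 0.69 (95% interval 0.16 to 1.21, adjusted p = 0.111), Phlda3 by 0.11 (-0.26 to 0.48) and Mgmt by 0.09 (-0.51 to 0.69). With the 12 methylcellulose arrays pooled as controls, Cdkn1a (0.68, adjusted p = 0.0195), Zmat3 (0.24, adjusted p = 0.0277) and Ddb2 (-0.34, adjusted p = 0.013) were called as well. TAA is acetamide with sulfur in place of oxygen and Mcarb a small carbamate, but dose differed among all 3 compounds and the dosing time of TAA from the other two, so values are only set side by side. Ccng1 differed from control set 1 by 0.17 with AA, 0.58 with Mcarb and 1.39 with TAA. Mdm2 differed by 0.40, 0.81 and 1.02 in the same order. The second Mdm2 probe set did not show that order. Its mean level was 6.51 with AA, 6.44 with Mcarb and 6.46 with TAA, against 6.11 in control set 1.

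Among the 8 non-genotoxic carcinogens Cdkn1a, Ccng1 or Mdm2 rose with ETH, DES, PBO, Mcarb and MPy, by 0.45 to 0.86, and none of them was called with AA, DHEA or PB. With ETH, the ethyl analog of methionine, 3 genes rose and 3 fell, with 11.7% of all probe sets up and 11.8% down. With DES, a synthetic oestrogen, 3 also rose and 3 fell, with 6.77% up and 8.72% down. Cdkn1a was at 9.58, 10.45 and 9.80 with ETH, at 10.03, 9.52 and 9.97 with DES and at 8.99, 8.86 and 9.38 in control set 5, differences of 0.86 ± 0.26 and 0.76 ± 0.26 (adjusted p = 0.0115 and 0.0393). Neither group overlapped the controls. Mdm2 rose by 0.77 and 0.51 and Ccng1 by 0.55 and 0.45, ETH first. Each of these rises depended on single arrays except that of Mdm2 with ETH. For ETH, Cdkn1a was at 0.61 (adjusted p = 0.14) without ETH replicate 2 and at 0.75 (adjusted p = 0.0657) without control 5 replicate 8, and Ccng1 at 0.42 (adjusted p = 0.0668) without the latter. For DES, all 3 rises were lost without control 5 replicate 8, with adjusted p of 0.155 for Cdkn1a, 0.223 for Ccng1 and 0.226 for Mdm2. They were also lost without DES replicate 1 (adjusted p = 0.145, 0.074 and 0.0637). Further single arrays whose absence ended a call were DES replicate 3 and control 5 replicate 7 for Cdkn1a, DES replicate 2 and control 5 replicate 9 for Ccng1, and DES replicates 2 and 3 for Mdm2, with values between 0.42 and 0.72. With both probe sets averaged, Cdkn1a differed by 0.48 with DES and 0.54 with ETH, neither called. With array weights in limma, Cdkn1a also lost its call with DES (0.69, adjusted p = 0.125) and with ETH (0.75, adjusted p = 0.095). Against the pooled methylcellulose controls the DES values were 0.23 for Mdm2 (adjusted p = 0.3) and 0.32 for Ccng1 (adjusted p = 0.0537), while with ETH both kept their call (0.49, adjusted p = 0.00485, and 0.41, adjusted p = 0.00444). In the same arrays 8 of the 9 macrophage markers (median 1.19) and 4 of the 8 biliary markers rose with ETH, and 6 of the 19 cycling cell markers with DES, and their part in these results was not tested.

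Against their own control sets PBO, Mcarb and MPy had 1, 2 and 1 rises. Mdm2 rose by 0.86 ± 0.17 with PBO, at 8.20, 7.60 and 7.64 against 7.17, 6.67 and 7.03, and was the only one of the 10 to rise, with 7.03% of all probe sets up. Control set 5 had the lowest mean Mdm2 level of the 6 control sets, 6.96 where the others ran from 7.21 to 7.36. Against the pooled methylcellulose controls the PBO rise was 0.58 (adjusted p = 0.00201), and against the other methylcellulose sets 0.48 (adjusted p = 0.00863). Cdkn1a was at -0.41 with PBO, the lowest of the 15 compounds. With Mcarb 2 genes rose, Mdm2 by 0.81 ± 0.17 and Ccng1 by 0.58 ± 0.15, where 0.782% of all probe sets rose. Its Mdm2 arrays read 8.26, 7.67 and 8.51, and without Mcarb replicate 3 neither gene was called (0.63, adjusted p = 0.186, and 0.41, adjusted p = 0.551), nor was either without control 1 replicate 4 (0.74, adjusted p = 0.0511, and 0.55, adjusted p = 0.147). Without control 1 replicate 5 or 6 Ccng1 alone lost its call (adjusted p = 0.0918 and 0.126). With MPy, an antihistamine, Ccng1 rose by 0.56 ± 0.15 and Xpc fell, with 3.28% of all probe sets up and 3.04% down. The MPy rise of Ccng1 had an adjusted p of 0.0635 without control 1 replicate 4 and of 0.122 without MPy replicate 3. Against the pooled methylcellulose controls MPy had 3 rises, Cdkn1a by 0.73 (adjusted p = 0.0118), Ccng1 by 0.63 and Mdm2 by 0.61 (adjusted p = 0.00148), and 8 of the 19 cycling cell markers also rose with MPy against its own set.

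No gene of the 10 was called with AA, CFX, Nif or PB, where 4.66%, 0.0063%, 8.46% and 1.35% of all probe sets were called in either direction. At an unadjusted p under 0.05 limma gave 2, 0, 1 and 1 of the 10 genes in the same order. With PB the differences ran from -0.51 for Phlda3 to 0.25 for Cdkn1a. With the pooled methylcellulose controls Mdm2 was called with AA (0.49, adjusted p = 0.0318) and Phlda3 with Nif (-0.53, adjusted p = 0.00954).

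Phlda3 fell with 5 compounds, none of them in the genotoxic class. It was at 7.96, 7.77 and 7.85 with DES against 9.41, 8.98 and 9.08 in control set 5 (-1.30 ± 0.18, adjusted p = 5.27e-07). With CPA, a steroidal antiandrogen, it was at 8.15, 8.25 and 7.82 against 8.99, 9.02 and 8.95 in control set 4 (-0.91 ± 0.18, adjusted p = 0.000787), the only one of the 10 called there, with 4.73% of all probe sets down. With DHEA, a steroid precursor, it was at 8.46, 8.43 and 8.86 against 9.52, 9.50 and 8.92 in control set 1 (-0.73 ± 0.18, adjusted p = 0.00303), with 8.37% of all probe sets down. None of these 3 groups overlapped its controls. PBO gave -0.61 ± 0.18, with 7.46% of all probe sets down, and Wy, a peroxisome proliferator, -0.55 ± 0.18, with 6.45% down. These last falls rested on single arrays: that with PBO was lost without PBO replicate 2 or 3 or control 5 replicate 7 (-0.50, -0.57 and -0.49), and that with Wy without control 1 replicate 4 or 5 or any of the Wy arrays (adjusted p between 0.0755 and 0.185). Macrophage markers fell in some of the same arrays, 6 of 9 with CPA, 6 with DHEA and 5 with Wy, and none was called with DES or PBO. Their mean level ran from 8.49 to 8.90 with CPA against 9.17 to 9.65 in control set 4, and from 8.61 to 8.97 with DHEA and 8.62 to 8.87 with Wy against 9.29 to 9.52 in control set 1. Of the 13 stellate cell and matrix markers 5 fell with CPA and 5 with DHEA. Their part in the Phlda3 falls was not tested.

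Xpc fell with CIDB, DES, ETH, MPy and PBO, and lay below the compound's own control set on average with every compound but DMN. That depended on the control set: against the pooled methylcellulose controls it differed by 0.12 with DHEA, 0.002 with TAA and -0.13 with Wy, none called. With PBO it was at 8.73, 8.67 and 9.09 against 9.85, 9.63 and 9.58 in control set 5 (-0.86 ± 0.18, adjusted p = 0.000435), and with ETH all 3 arrays lay between 8.99 and 9.04 (-0.68 ± 0.18, adjusted p = 0.00323). Neither overlapped the controls. With MPy it was at 9.15, 9.33 and 9.28 against 9.77, 10.16 and 9.80 (-0.65 ± 0.18, adjusted p = 0.0153), and with DES at 9.35, 8.84 and 9.07 (-0.60 ± 0.18, adjusted p = 0.015). The call with MPy was lost without control 1 replicate 5 (-0.53, adjusted p = 0.129) or MPy replicate 1 (-0.60, adjusted p = 0.0755), and that with DES without DES replicate 2 (-0.47, adjusted p = 0.114) or control 5 replicate 7 (-0.52, adjusted p = 0.0775).

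Besides CIDB, Ddb2 fell with DES (-0.74 ± 0.11), ETH (-0.46 ± 0.11) and PBO (-0.56 ± 0.11), the 3 compounds that share control set 5. The second Ddb2 probe set was called with none of them (-0.23, 0.01 and -0.16). That set stood high in Ddb2, at 7.81, 8.28 and 7.82, while the other 9 methylcellulose arrays lay between 7.45 and 7.75. Against those 9 arrays the fall with DES kept its call (-0.37, adjusted p = 0.00129) and those with ETH (-0.09, adjusted p = 0.469) and PBO (-0.19, adjusted p = 0.141) did not. Sesn1 fell with ETH, at 7.75, 8.01 and 7.24 against 8.28, 8.18 and 8.12 (-0.53 ± 0.16, adjusted p = 0.0126), and without ETH replicate 3 the difference was -0.31 (adjusted p = 0.201).

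**Figure D4:**
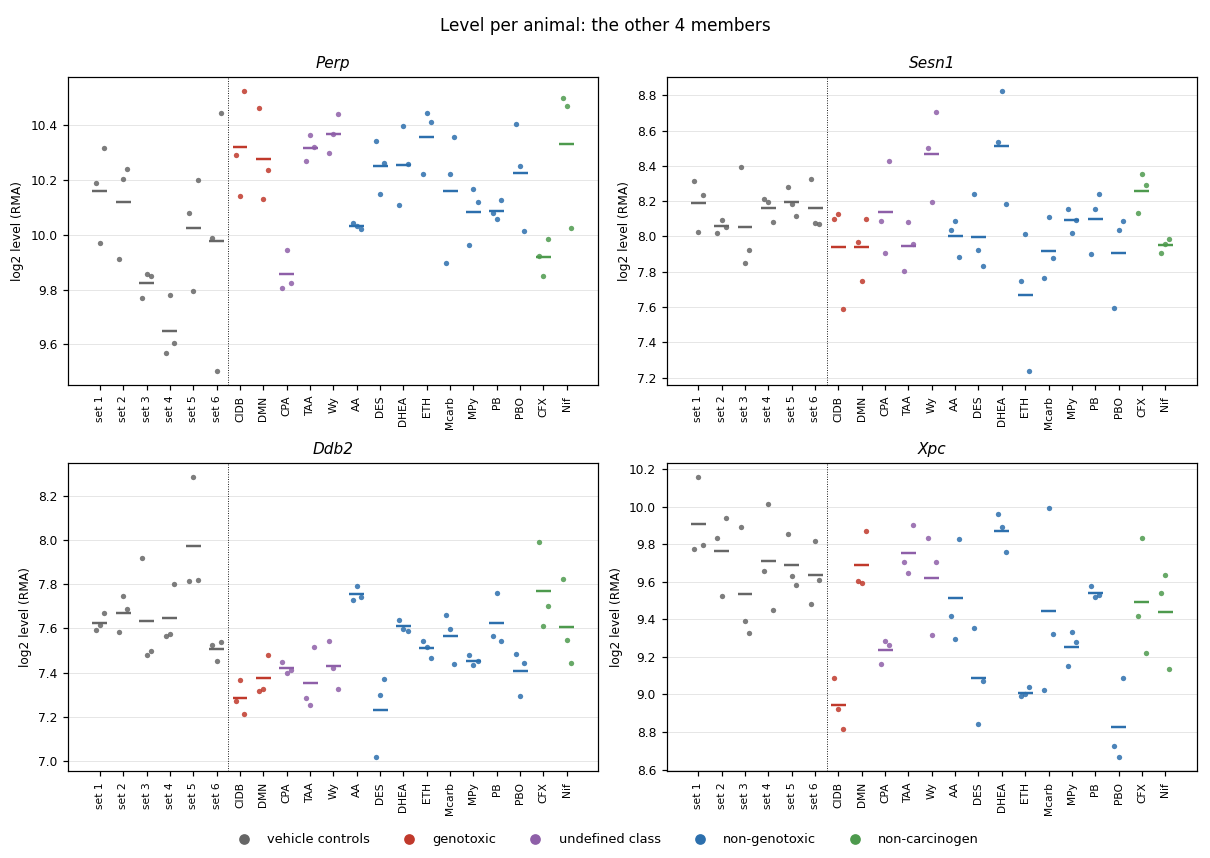
Log2 level on every array (points) and group mean (line) of Perp, Sesn1, Ddb2 and Xpc in the 6 control sets and with the 15 compounds, 3 arrays a group, on axes that span less than those of the strongly rising genes. Control set 5 stands high in Ddb2, at 7.81 to 8.28, and the CIDB, DES, ETH, MPy and PBO groups are low in Xpc.

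Between control sets of the same vehicle, 7 pairs were compared. Among the 10 genes 1 call was made, Ddb2 in set 5 against set 6 (0.47 ± 0.11, adjusted p = 0.0023), which was lost without control 5 replicate 8. The share of all probe sets called in either direction was 0.914% for sets 1 and 2, 2.14% for 1 and 5, 7.77% for 1 and 6, 2.72% for 2 and 5, 1.95% for 2 and 6, 10.2% for 5 and 6 and 0.466% for 3 and 4. Cdkn1a, Ccng1, Mdm2, Phlda3, Mgmt and Xpc were called in none of these pairs.

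With the compound as the unit, the 2 genotoxic compounds were set against the 8 non-genotoxic carcinogens. The mean log2 fold change of Cdkn1a was 3.14 against 0.39 ± 0.44 (SD, n = 8), a difference of 2.75 ± 0.38 (adjusted p = 0.0137). Ccng1 differed by 2.46 ± 0.37 (adjusted p = 0.0171) and Mgmt by 1.77 ± 0.23 (adjusted p = 0.0109), and these 3 were the only calls among the 10, where 0.113% of all probe sets were called. Mdm2 differed by 2.00 (adjusted p = 0.0664) and Phlda3 by 1.85 (adjusted p = 0.0732). In an exact two-sided permutation test over compounds, run for each of the 10 genes and not adjusted, Cdkn1a, Ccng1, Mdm2, Phlda3, Perp and Mgmt had p = 0.0222, the smallest that the 45 assignments can give. Both genotoxic values lay above all 8 others for each of them. The limma calls rest on CIDB: without it none of the 10 genes passed (adjusted p = 0.279 for Cdkn1a, 0.472 for Ccng1 and 0.256 for Mgmt) and without DMN 6 did. CIDB and DMN share their control arrays, and no non-genotoxic carcinogen was set against corn oil controls, so class and vehicle cannot be told apart here. Of the 8, MPy alone was also dosed for 7 days (Cdkn1a 0.74, Ccng1 0.56).

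The order of the compounds was alike for Cdkn1a, Ccng1 and Mdm2 at the top, with CIDB first and DMN second, and their arrays did not overlap each other or the next compound. The third place was ETH for Cdkn1a (0.86) and TAA for Ccng1 (1.39) and Mdm2 (1.02). From there on neighbours overlapped for Cdkn1a at every step down to PBO. Over the 15 compounds the log2 fold changes of Cdkn1a, Ccng1, Mdm2, Phlda3 and Mgmt had a Pearson correlation between 0.89 and 0.96 with the mean of the other 9 genes. Zmat3 had 0.82, Perp 0.55, and Sesn1, Ddb2 and Xpc between -0.20 and 0.04. Without CIDB and DMN the first range was 0.34 to 0.76, Zmat3 had 0.44 and Perp -0.28. Compounds share control arrays, and these correlations are a description.

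The wider pathway was read from lists fixed by name, and their counts stand beside shares of 8.14% up and 5.75% down over all probe sets with CIDB and 2.31% up with DMN. Of 13 other p53 targets measured, 4 rose and 1 fell with CIDB (median 0.20, against -0.02 over all probe sets), and 1 rose with DMN (median 0.08). Plk2, a stress kinase, rose by 1.42, Gdf15, a secreted stress hormone, by 1.20 and Ei24 by 0.46 with CIDB, while Cd82, a membrane tetraspanin, differed by -0.38. Gdf15 was the one that rose with DMN (0.88). Chosen after its values were seen, Gdf15 also rose with DES by 3.03, more than with either genotoxic compound, and with MPy by 0.61. Of 15 regulators of p53 and damage signalling 2 rose and 1 fell with CIDB, and none was called with DMN. The ubiquitin ligase gene Rchy1 (0.60) and the phosphatase gene Ppm1d (0.40), whose products both dampen p53, were those that rose, and the checkpoint kinase gene Chek1 (-0.50) fell.

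Of 33 further genes of excision and alkylation repair 4 rose and 3 fell with CIDB, and 3 rose with DMN. With CIDB these included Polb, the polymerase of base excision repair (0.51), Nthl1, a glycosylase (0.40), Ercc6, of transcription-coupled repair (0.45), and Parp1, the sensor of strand breaks (-0.53). Rpa1, which coats single strands, rose with DMN (0.43), as did Xrcc1 (0.41), the scaffold of base excision repair, and Polb (0.29). With Wy 9 of the 33 rose, where 6.5% of all probe sets rose, and with ETH 8 rose and 4 fell, where 11.7% and 11.8% did. In the Wy arrays 14 of the 19 cycling cell markers also rose (median 0.82), and their part in the Wy count was not tested. None of the 33 was called with AA or CFX. Of 25 genes of mismatch, double strand break and replication repair 3 rose with CIDB, Ube2b (0.41), Rev1 (0.47) and Rev3l (0.31), all of the bypass of lesions in replication, and none was called with DMN.

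The 10401 genes besides the 10, those of the lists included, were ranked by how closely their fold changes over the 15 compounds followed the mean of the 10. The first 8 were Lama5, Skap2, Mybl2, 4930522L14Rikl, Cdkn1c, Zfp688, Nhej1 and Cd81, none of them in the lists. Their Pearson correlations ran from 0.96 down to 0.91. Lama5, a laminin chain, stood at 2.52 with CIDB and 1.24 with DMN and between -0.16 and 0.41 with the other 13 compounds. Nhej1, of double strand break joining, stood at 2.83 and 1.04 with CIDB and DMN. With the other 13 compounds it lay between -0.09 and 1.16, so its highest value there exceeded that with DMN. Cdkn1c, an inhibitor of cyclin-dependent kinases like Cdkn1a, stood at 1.09 and 0.59, and between -0.26 and 0.14 with the other 13. Without CIDB and DMN the correlations of the 8 genes lay between 0.42 and 0.56.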

How the data were processed

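Per the labels and the study's methods, the authors applied RMA (affy package, version not given in the sources used here) to Affymetrix CEL files and deposited 1 log2 value per probe set and array. The values ran from 3.96 to 15.11 and array medians from 7.42 to 7.51, and no further normalization was applied. RMA gives no reading of background per probe set, and the number of arrays limits the precision.

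The 21 group means were estimated together from the 63 arrays (limma 3.58.1, R 4.3.3, 42 residual degrees of freedom, prior 4.81, median residual SD 0.117), and Benjamini-Hochberg adjustment of the P-values ran over 15866 probe sets. Classes were compared on the 15 compound means. Replicates are separate animals. Of the probe sets 12783 had 1 symbol, 312 several and 2771 none, and those without a symbol of their own named no gene. The 10 genes, the lists and the tests were chosen with earlier results of these data known. The 10 genes were named in every compound, at most 4 genes per list by adjusted p for CIDB and DMN, and 8 genes by their likeness. The lists of lymphocyte, neutrophil, stellate, endothelial, biliary and housekeeping markers were also read. With CIDB, in that order, 0 of 11, 0 of 3, 2 of 13, 0 of 6, 2 of 8 and 2 of 6 rose and 0, 0, 1, 1, 0 and 0 fell. With DMN 0, 1, 2, 0, 0 and 1 rose and 0, 0, 1, 1, 0 and 0 fell. The fit was tested on simulated data. Figures were drawn with matplotlib 3.10.9 in Python 3.11.15.

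Replicate numbers are shared by CPA and control set 4, PB and control set 6, and CIDB and DMN. Deviations of same-numbered arrays from their group means had correlations between -0.15 and 0.17, so the numbers do not pair the animals. Alternatives covered the arrays in the fit, array weights, the controls, a filter on low values, centring, the prior, the probe sets, the fold criterion and each array left out.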

Additional observations from a re-analysis of the deposited data

How the results depend on the processing

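Each of the 48 calls or direct differences of the 10 genes was recomputed under the alternatives, 634 values without the fold criterion. Of these 567 kept the call, 67 lost it and 0 changed direction, and 27 of the 48 kept it in every alternative, those of Cdkn1a, Ccng1, Mdm2, Phlda3 and Mgmt with CIDB and DMN included. The cause of the changes was not tested. The number of genes called moved by over 1.5 times as follows. With only the compared arrays in the fit, it was 2 for DHEA, 0 for Mcarb, 1 for Nif and 0 for Wy. With array weights it was 5 for MPy, 1 for Nif and 1 for control sets 1 against 5. With controls pooled by vehicle it was 1 for AA, 2 for DHEA, 4 for MPy, 1 for Nif, 5 for TAA and 3 for Wy, and the other control sets of the vehicle in place of the compound's own, chosen after seeing the data, gave the same counts of 1, 2, 4, 1, 5 and 3. With arrays centred on their median it was 1 for Mcarb. With the mean of all probe sets of a gene it was 2 for DHEA, 1 for Mcarb and 2 for Wy. With the 2.5-fold criterion it was 5 for CIDB, 1 for TAA and 0 for CPA, DES, DHEA, ETH, Mcarb, MPy, PBO and Wy. Smaller moves included DES at 4 with pooled controls and with the mean of probe sets, ETH at 4 with that mean, and DMN between 4 (2.5-fold) and 7 (other control sets). Calls lost with only the compared arrays were Ddb2 with CIDB, Ccng1 with DES, Sesn1 with ETH, Ccng1 and Mdm2 with Mcarb and Phlda3 with Wy. Those lost with the mean of probe sets were Ddb2 with CIDB and ETH, Cdkn1a with DES and ETH and Mdm2 with DES and Mcarb. Those lost with array weights were Cdkn1a with DES and ETH.

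With single arrays left out the count ran from 6 to 9 for CIDB, 3 to 5 for DES, 4 to 7 for ETH, 0 to 3 for Mcarb, 1 to 2 for MPy, 3 to 4 for PBO, 0 to 1 for Wy, 6 to 7 for CIDB against DMN, 0 to 1 for control sets 1 against 5 and 5 against 6, and stayed at 5 for DMN, 2 for TAA and 1 for CPA and DHEA. With single compounds left out the class count ran from 0 to 6. With the replicate number as a replicate block in the compared arrays, 2 genes were called with CPA in place of 1, and the counts for PB (0) and CIDB against DMN (6) stayed. Over all probe sets the block gave 953 calls in place of 873 for CPA, 30 in place of 51 for PB and 1747 in place of 1886 for CIDB against DMN. RMA values give no signal over background, so none is given for the low levels of Ddb2.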
